A study of Mus musculus with 2 samples.

Results

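CD3-positive barcodes without Cd8 UMIs are the droplets in which T-cell receptor complex transcripts were read and no transcript of either CD8 chain was. A barcode marks 1 droplet, and a UMI is 1 counted RNA molecule. A barcode belonged here if it had at least 300 genes, under 10% mitochondrial UMIs, at least 2 UMIs summed over Cd3d, Cd3e, Cd3g, Trac, Trbc1 and Trbc2, and 0 UMIs of Cd8a and Cd8b1. The rule took in 168 of 2388 kept barcodes in replicate 1 (7.04%, exact binomial 95% interval 6.04 to 8.14%) and 277 of 2837 in replicate 2 (9.76%, 8.70 to 10.9%), so 445 of 5225 in all. The mean share was 8.40% ± 1.93 (SD, n = 2 libraries). No barcode sequence was shared between the libraries among the kept barcodes.

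The study sequenced single immune cells, sorted by flow cytometry from tumours of MC38, a mouse colon carcinoma line, on day 21 with a droplet-based 3′ kit. It has 1 group, MC38 tumour, with 2 replicate libraries, and the labels give no treatment, genotype or strain of the host mice. Whether the replicates are separate animals is not stated in the labels. Each library's files also bear a word of their own, left unexplained by the labels and not used here, so the libraries may differ in more than replicate, and each mean, SD and p-value below treats them as replicates of 1 group. The CD3-positive barcodes without Cd8 UMIs held 254 Xist and 0 Y-linked UMIs in replicate 1, against 0 and 59 in replicate 2. All kept barcodes held 1794 and 0, against 0 and 384. By these transcripts the cells of replicate 1 were female and those of replicate 2 male, so the replicates were not 1 animal. Host sex thus cannot be told apart from replicate in the differences between libraries below.

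CD3 chains carry the signal of the T-cell receptor and are made by nearly all T cells. CD8 marks the T cells that read peptides on MHC class I and kill, CD4 marks those that read MHC class II, and Foxp3 is the factor that defines regulatory T cells among them. T cells with a gamma-delta receptor, whose delta constant region is encoded by Trdc, often lack both coreceptors. Natural killer (NK) cells, marked in mice by the receptor gene Ncr1, have no rearranged T-cell receptor but can carry CD3 chain and receptor constant region transcripts. Droplet sequencing reads only part of a cell's RNA, so a CD8 T cell can show 0 Cd8 UMIs.

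The label was checked first. Besides the genes of the rule, the barcodes carried Il2rb, the shared beta chain of the interleukin-2 and interleukin-15 receptors, in 41 of 168 barcodes of replicate 1 (24.4%) and 65 of 277 of replicate 2 (23.5%). C1q barcodes, as used hereafter, had at least 2 C1q UMIs, none of the rule's genes and under 2 UMIs of 6 NK genes. The 6 were Ncr1, Klrb1c, Klre1, Klra4, Klra7 and Klra8, and this limit kept 5 barcodes of each library out of the class. Among the C1q barcodes, Il2rb was found in 21 of 1133 (1.85%) and 19 of 780 (2.44%). T-cell transcripts outside the rule were therefore present in both libraries, over the level in barcodes that should lack them. The median depth was 1868.5 and 1489 UMIs per barcode, against 1285 and 1087.5 in the C1q barcodes. CD3-positive barcodes with at least 1 Cd8 UMI, 33 in replicate 1 and 182 in replicate 2, were deeper, with medians of 2290 and 1751.5.

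Most of these barcodes also held macrophage RNA. The C1q genes, which encode a complement component made by tumour macrophages, gave at least 2 UMIs in 123 of 168 barcodes (73.2%) of replicate 1 and 194 of 277 (70.04%) of replicate 2. Their summed level was 6764 and 4942 CPM (UMI counts scaled to the total UMIs of the class), against 8764 and 7255 CPM in the C1q barcodes, and the CD3-positive barcodes with Cd8 UMIs stood at 7415 and 4490 CPM. Barcodes with at least 2 Cald1 or Cav1 UMIs and no Ptprc, the pan-leukocyte CD45 gene, had 72.5 and 56.1 CPM. C1q RNA was thus high in CD3-positive barcodes both without and with Cd8 UMIs, and low in a CD45-negative class of the same libraries. Ptprc itself was read in 30.95% and 43.7% of the CD3-positive barcodes without Cd8 UMIs. The part of free RNA, or of droplets with more than 1 cell, in these values was not tested, and the doublet caller marked 0 of the 168 and 1 of the 277 barcodes.

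Membership rested on few molecules. The median CD3 sum was 3 UMIs in both libraries, with a highest value of 22 in replicate 1 and 13 in replicate 2. Just inside the rule, at 2 CD3 UMIs, lay 57 and 113 barcodes, and just outside it, at 1 CD3 UMI without Cd8, lay 138 and 256. Both a CD3 chain and a receptor constant region were seen in 120 and 178 barcodes. A CD3 chain alone was seen in 21 and 72 barcodes, and a receptor constant region alone in 27 and 27. Only 1 of the 6 genes was seen in 14 barcodes (8.33%) of replicate 1 and 28 (10.1%) of replicate 2. Among the chains, Cd3d was read in 55.4% and 58.8% of the barcodes, Trac in 43.5% and 40.8%, and Trbc2 in 52.4% and 49.8%. Trbc1 was read in 28.6% and 11.9%, but 29.6% of the 90-base windows at the ends of its transcripts are identical to another Trbc gene, so its split from Trbc2 is uncertain.

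The share of CD3-positive barcodes that showed Cd8 grew with the number of CD3 UMIs. In replicate 1 it was 2.82% at 1 CD3 UMI, 6.56% at 2, 10.8% at 3 to 4 and 31.8% at 5 or more. In replicate 2 it was 18.7%, 30.2%, 36.8% and 54.5% over the same classes. Even at 5 or more CD3 UMIs, 45 barcodes of replicate 1 and 61 of replicate 2 held no Cd8 UMI. The share with Cd8 also rose over tertiles of total depth, from low to high 8.96%, 16.4% and 23.9% in replicate 1 and 30.1%, 41.8% and 47.1% in replicate 2. The libraries differed at every CD3 class, replicate 2 being the higher, with intervals that did not overlap.

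**Figure D1:**
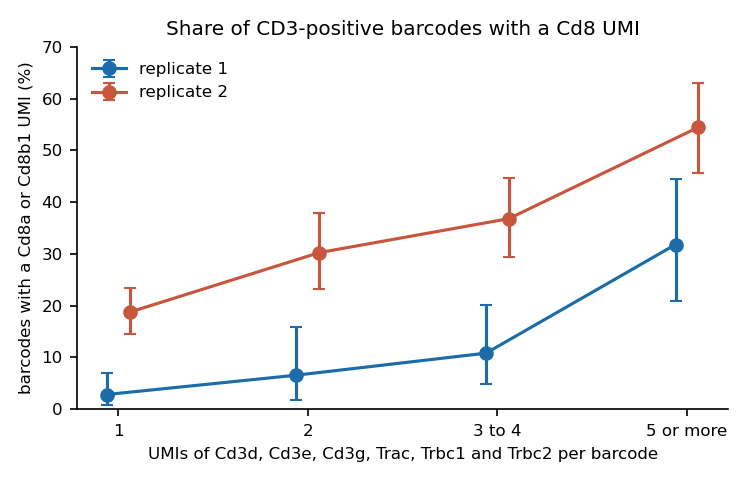
Share of barcodes with at least 1 Cd8a or Cd8b1 UMI (y axis, %) by the number of CD3 and receptor constant region UMIs (x axis), with exact binomial 95% intervals, for both replicates. The share climbs from 2.82% to 31.8% in replicate 1 and from 18.7% to 54.5% in replicate 2; barcodes at 1 CD3 UMI lie outside the rule.

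How many of the barcodes are CD8 T cells with unread Cd8 was estimated in 3 ways. Cd8a and Cd8b1, which encode the alpha and beta chains of 1 receptor, were treated as 2 independent chances of detection. In replicate 1, 14 barcodes had Cd8a only, 10 had Cd8b1 only and 9 had both, which put the number with neither at 14.0 (SE 7.82) by Chapman's estimator, or 8.33% of the 168 barcodes. In replicate 2 the counts were 86, 57 and 39, which put it at 123 (SE 30.2), or 44.2% of the 277. A zero-truncated Poisson model with 1 rate of Cd8 UMIs per total UMI gave 22.4 barcodes (13.3%) in replicate 1 and 221 (79.9%) in replicate 2. The same model with the rate per CD3 UMI gave 27.5 (16.4%) and 209 (75.3%).

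All 3 estimates put hidden CD8 T cells at a minority of the barcodes in replicate 1, and 2 of the 3 put them at most of the barcodes in replicate 2. Each estimate takes every CD3-positive barcode with a Cd8 UMI as a CD8 T cell. Of those barcodes, 72.7% in replicate 1 and 66.5% in replicate 2 held at least 2 C1q UMIs. The part of free RNA, or of droplets with more than 1 cell, in their Cd8 UMIs was not tested. Chapman's estimator assumes that every CD8 T cell has the same chance of detection per gene, and the values go against this. The share with Cd8 rose with depth, and barcodes with 2 or more Cd8 UMIs had medians of 4283 and 2053 UMIs, against 1950.5 and 1661 for those with 1 Cd8 UMI. Unequal chances of that kind make the 2 genes turn up together more often and lower Chapman's estimate. The Poisson models scale the chance with total UMIs or with CD3 UMIs, and whether 1 rate then holds for every CD8 T cell was not tested. The C1q UMIs in these barcodes are part of the total depth that the first Poisson model uses. Among the barcodes with under 2 C1q UMIs, Chapman's estimate was 4.44% in replicate 1 (SE 4.87) and 48.2% in replicate 2 (SE 19.9). The Poisson model on total UMIs gave 9.84% and 70.9% of them, and the model on CD3 UMIs 9.40% and 75.1%.

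**Figure D2:**
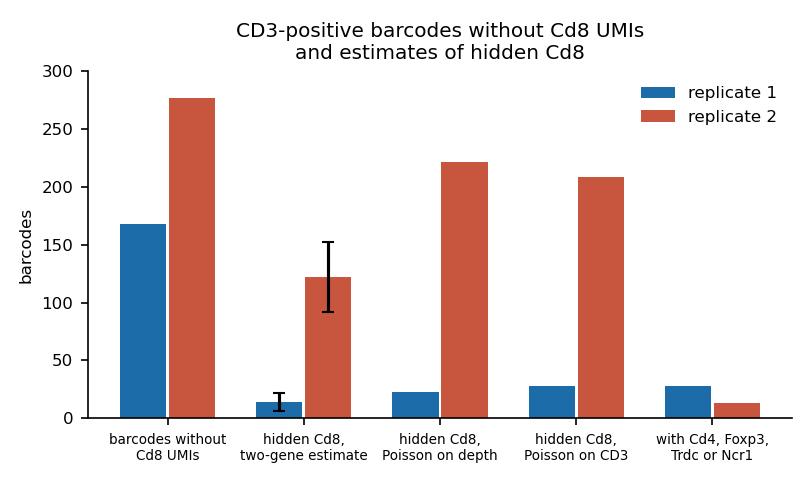
Numbers of CD3-positive barcodes without Cd8 UMIs, 3 estimates of how many of them are CD8 T cells whose Cd8 was not read, and the number holding a Cd4, Foxp3, Trdc or Ncr1 UMI, by replicate (the error bar is the SE of the two-gene estimate). The estimates reach 14.0 to 27.5 of 168 barcodes in replicate 1 and 123 to 221 of 277 in replicate 2.

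Few barcodes carried a transcript that names another lineage. A UMI of Cd4, Foxp3, Trdc or Ncr1 was found in 28 of 168 barcodes of replicate 1 (16.7%) and 13 of 277 of replicate 2 (4.69%), or 41 of 445. The mean of the libraries was 10.7% ± 8.47 (SD, n = 2), against 4 of 215 CD3-positive barcodes with Cd8 UMIs (mean 2.34% ± 0.977) and 29 of 1913 C1q barcodes (1.499% ± 0.126). Drawn down to 800 UMIs per barcode, the expected share was 6.36% in replicate 1 and 2.01% in replicate 2. The single barcode with more than 1 of the 4 genes held Trdc and Ncr1 in replicate 2. Each gene had only 2 to 9 holders per library, so the lack of shared barcodes does not show that the genes mark separate cells. Most barcodes thus held no UMI of Cd8a, Cd8b1 or any of the 4 genes. Cd4, Foxp3 and Trdc fell under the filter on low counts, so their fitted differences are from the fit without it.

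Cd4 gave 9 UMIs in 8 barcodes of replicate 1 (4.76%) and 3 UMIs in 3 barcodes of replicate 2 (1.08%). In CD3-positive barcodes with Cd8 UMIs it was seen in 0 of 33, which allows a share of up to 9.09%, and in 2 of 182 (1.10%), and in C1q barcodes in 6 of 1133 (0.530%) and 8 of 780 (1.03%). The share in replicate 2 was therefore at the level of the C1q barcodes, and was not read as expression. In replicate 1 the 8 holders had 3 to 22 CD3 UMIs, 7 of them had Trac and 3 had Icos, a costimulatory receptor of activated T cells. Cd40lg, the helper-cell ligand of CD40, was at 0 UMIs in all 445 barcodes, as was Il17a, the cytokine of type 17 cells. A count of 0 allows up to 1.79% of barcodes in replicate 1 and 1.08% in replicate 2 to show Cd40lg. Over C1q barcodes the log2 fold change of Cd4 was 1.29 (SE 0.75), which missed the threshold by edgeR's quasi-likelihood test with Benjamini-Hochberg adjustment (adjusted p = 1).

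Foxp3 gave 11 UMIs in 9 barcodes of replicate 1 (5.36%, 2.48 to 9.93%) and 2 UMIs in 2 barcodes of replicate 2 (0.722%, 0.0876 to 2.58%). It was seen in 0 of 33 and 1 of 182 (0.549%) CD3-positive barcodes with Cd8 UMIs, and in 4 of 1133 (0.353%) and 2 of 780 (0.256%) C1q barcodes. Replicate 1 thus stood above the C1q barcodes beyond counting error, and replicate 2 did not. Drawn down to 800 UMIs, the expected share in replicate 1 was 2.02%, against 0.127% in C1q barcodes. The fitted log2 fold change over C1q barcodes was 2.72 (SE 0.95), with an adjusted p of 0.351 in edgeR. All 11 holders also had at least 2 C1q UMIs, and none of the 128 barcodes with under 2 C1q UMIs held Foxp3. The 9 holders of replicate 1 were deep, with a median of 4061 UMIs, and regulatory T-cell genes were mixed among them. Tnfrsf18 (GITR) was in 6 of the 9, against 30.2% of the other 159 barcodes, Tnfrsf4 (OX40) in 5, against 18.9%, Il2ra (the interleukin-2 receptor alpha chain) in 5, against 8.18%, and Ikzf2 (Helios) in 5, against 11.9%. Ctla4 was in 2, Il10 and Izumo1r (the folate receptor 4 gene) in 1 each, and Ccr8, Lrrc32 and Gpr83 in 0, while Gzmb (granzyme B) was in 5 with 15 UMIs. In replicate 2, Ctla4 and Ikzf2 were each in 1 of the 2 holders, and Tnfrsf18, Tnfrsf4 and Il2ra in 0. Il2ra was read in 18 of 168 barcodes (10.7%) of replicate 1 and 10 of 277 (3.61%) of replicate 2, against 0 of 33 and 7 of 182 (3.85%) with Cd8 UMIs. Izumo1r was read in 15 (8.93%) and 2 (0.722%) barcodes, against 1 (3.03%) and 5 (2.75%) with Cd8 UMIs. Both genes, chosen after their values were seen, rose over C1q barcodes in edgeR without the filter. Il2ra, with 20 and 10 UMIs against 9 and 4, rose by 2.82 on the log2 scale (SE 0.57, adjusted p = 0.00015). Izumo1r, with 21 and 2 UMIs against 4 and 0, rose by 4.21 (SE 0.79, adjusted p = 2.34e-05). Most Izumo1r UMIs thus came from replicate 1.

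Trdc gave 5 UMIs in 4 barcodes of replicate 1 (2.38%) and 6 UMIs in 6 barcodes of replicate 2 (2.17%). It was at 0 in all 33 and 182 CD3-positive barcodes with Cd8 UMIs, which allows up to 9.09% and 1.65%, and was seen in 1 barcode (0.0883%) and 1 barcode (0.128%) of the C1q class. Of the 4 genes, Trdc had the closest shares in the libraries. Its log2 fold change over C1q barcodes was 3.88 (SE 1.19, adjusted p = 0.141 in edgeR). Holders were thin in other gamma-delta genes. In replicate 1, Tcrg-C1, Tcrg-C4 and Trdv4 were each in 1 of 4 holders and Cd163l1, a scavenger receptor gene of gamma-delta T cells, in 2. In replicate 2, Tcrg-C1 and Cd163l1 were each in 1 of 6. All 4 holders of replicate 1 also had Trbc2, an alpha-beta receptor constant region gene, against 51.2% of the other barcodes. Trac was in 0 of these 4, against 44.5% of the others. In replicate 2, Trbc2 was in 4 of 6 holders, against 49.4%, and Trac in 1, against 41.3%. Tcrg-C2, a gamma constant region gene that alpha-beta T cells can also transcribe, was in 5 (2.98%) and 5 (1.81%) barcodes, against 3 (9.09%) and 2 (1.10%) with Cd8 UMIs.

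Ncr1 gave 12 UMIs in 7 barcodes of replicate 1 (4.17%) and 3 UMIs in 3 barcodes of replicate 2 (1.08%). It was seen in 1 of 33 (3.03%) and 0 of 182 CD3-positive barcodes with Cd8 UMIs and in 7 of 1133 (0.618%) and 0 of 780 C1q barcodes. The C1q class left out barcodes with 2 or more UMIs of 6 NK genes, Ncr1 among them. Its Ncr1 values, and the fold changes of Ncr1 over it, follow in part from that rule. Over C1q barcodes the log2 fold change of Ncr1 was 3.26 (SE 0.80), which missed the threshold in edgeR (adjusted p = 0.108). Without the filter on low counts it was 3.08 (SE 0.83) and passed (adjusted p = 0.0357), and over the 8 other settings in which Ncr1 kept enough counts to be tested the adjusted p ran from 0.104 to 1. The 7 holders of replicate 1 shared some NK genes and lacked others. Among them Klrd1 (the CD94 receptor chain) was in 6, Xcl1 (a chemokine that draws dendritic cells) in 6 with 32 UMIs, Nkg7 (a cytotoxic granule gene) in 6, Gzmc (granzyme C) in 5 with 39 UMIs, and Klre1, an NK receptor gene, in 4. In the other 161 barcodes of that replicate Klrd1 was in 19.3%, Xcl1 in 8.07%, Nkg7 in 43.5%, Gzmc in 3.73% and Klre1 in 4.35%. Klrk1 was in 4 of the 7, against 9.94% of the other 161. Klrc1 and Prf1 were in 3 of the 7, Klrb1c, Klra3, Klra4, Klra7, Klra8, Klrc2 and Eomes in 1 each, and Klra9 and Gzma in 0. Of the 3 holders of replicate 2, Gzmc was in 3, Klrd1, Xcl1, Nkg7 and Gzma each in 2, and Klre1 and Klrk1 in 0. Trbc2 was in all 7 holders of replicate 1 and Trac in 1 of them. Cd3e was in 0 of these 7, against 28.6% of the other barcodes, and in 0 of the 3 holders of replicate 2, against 36.5%. Klrb1c, the NK1.1 gene, was in 2 barcodes of each library.

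**Figure D3:**
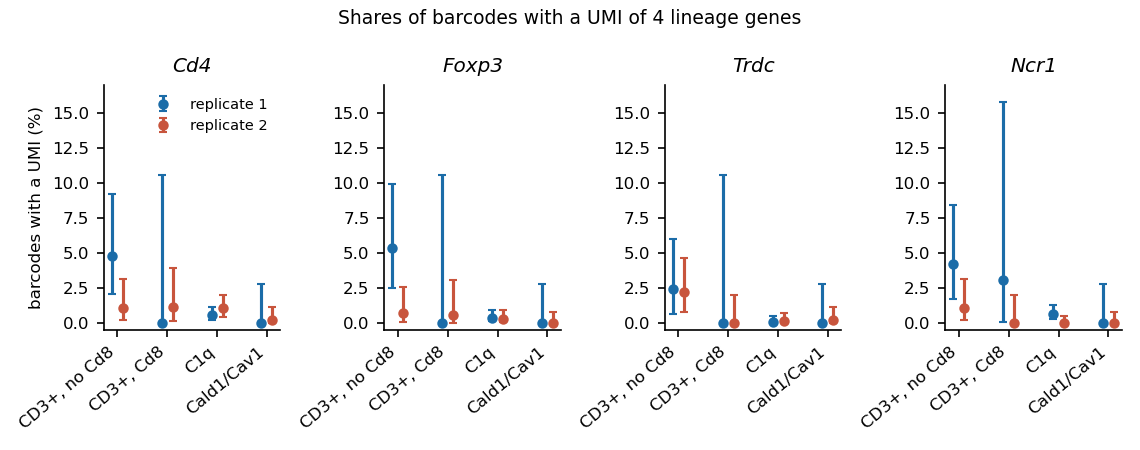
Share of barcodes with at least 1 UMI (y axis, %) of Cd4, Foxp3, Trdc and Ncr1 in CD3-positive barcodes without Cd8 UMIs, CD3-positive barcodes with Cd8 UMIs, C1q barcodes and CD45-negative Cald1 or Cav1 barcodes (x axis, left to right), with exact binomial 95% intervals, by replicate. Foxp3 reaches 5.36% in replicate 1 and 0.722% in replicate 2 in the leftmost class, and Trdc 2.38% and 2.17%.

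Genes not used by the rule were then compared on UMIs summed per library and class. Against CD3-positive barcodes with Cd8 UMIs, 0 of 5998 tested genes passed an adjusted p under 0.05 in edgeR (0.0%), with 127 at an unadjusted p under 0.05. DESeq2 called 0 too, and 40 genes had an unadjusted p under 0.05 there. Both counts are below the share of 0.05 that would reach such a p with no difference at all. The unadjusted p-values given below therefore do not mark single genes as different. With 2 libraries, and 33 barcodes in the smaller class, this does not show that the classes are alike. The rule separates the classes by Cd8 UMIs, which depend on depth and on CD3 level, so deeper CD8 T cells fall in the Cd8-positive class.

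The cytotoxic genes, which arm killer cells, did not pass the test against barcodes with Cd8 UMIs: 0 of 13 tested, with a median log2 fold change of -0.03 beside 0.03 over all genes. Nkg7 had 341 and 558 CPM in the barcodes without Cd8 UMIs, against 938 and 812 CPM in those with them (log2 fold change -0.94, SE 0.41, unadjusted p = 0.0416). Gzmb (granzyme B) had 159 and 256 CPM, against 174 and 266 CPM. Ifng (interferon gamma) had 20.7 and 52.8 CPM, against 77.3 and 130 CPM (-1.41, SE 0.46, unadjusted p = 0.00946), and was lower without Cd8 UMIs in both libraries. Ccl4, a chemokine of activated T cells and macrophages, had 290 and 687 CPM, against 735 and 1156 CPM (-0.96, SE 0.62). The NK receptor chain Klrd1 had 159 and 296 CPM, against 290 and 455 CPM (-0.69, SE 0.26, unadjusted p = 0.0205). None of these 5 genes passed adjustment in edgeR.

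Other lists behaved the same way. T-cell receptor signalling genes had 0 of 17 passing with a median of -0.22, and Lat, the adaptor that couples the receptor to its signal, had 21 and 21 UMIs against 12 and 27 (log2 fold change -0.90, SE 0.38). Exhaustion genes had 0 of 15 passing with a median of -0.30, and Pdcd1, the PD-1 receptor, had 11.5 and 68.5 CPM, against 19.3 and 118 CPM. Regulatory T-cell genes had 0 of 5 passing with a median of 0.27, and their median differed in sign between the libraries, at 0.97 in replicate 1 and -0.20 in replicate 2. Tnfrsf4, a costimulatory receptor high on regulatory T cells, had 180 and 80.3 CPM, against 48.3 and 93.4 CPM, so it was higher in replicate 1 only. Cell cycle genes had 0 of 23 passing with a median of -0.10, and interferon-induced genes 0 of 15 with a median of 0.22.

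The genes with the smallest unadjusted p among those higher without Cd8 UMIs, and of the same sign in both libraries, were Gzma, S100a8, S100a9, Cdk12 and Kmt5b. Those among the lower ones were Smad4, Ccl1, Fastk, Prorsd1 and Csnk2a1. Gzma (granzyme A) had 13 and 130 UMIs without Cd8 UMIs, against 0 and 9 with them, which gave a log2 fold change of 3.31 (SE 0.69, unadjusted p = 0.000426). S100a8 and S100a9, calcium-binding proteins abundant in neutrophils, had 147 and 304, and 140 and 276 UMIs, against 1 and 85, and 1 and 80. Smad4, a mediator of TGF-beta signalling, had 2 and 7 UMIs, against 3 and 25. Ccl1, a chemokine of activated T cells, had 21 and 12 UMIs, against 11 and 51. The other 5 were low in both classes or differed less, and none of the 10 passed, each with an adjusted p above 0.05 in edgeR.

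Single barcodes carried S100a8 and S100a9 in replicate 1 and Gzmf in replicate 2. In replicate 1, 1 barcode held 137 of the 147 S100a8 UMIs and 128 of the 140 S100a9 UMIs. In replicate 2 the S100a8 UMIs were spread over 52 barcodes (18.8%), with 29 in the highest, against 16 of 182 (8.79%) with Cd8 UMIs and 87 of 780 (11.2%) C1q barcodes. At least 2 UMIs of S100a8 and S100a9 were in 2.98% and 16.2% of the barcodes, against 0% and 8.79% with Cd8 UMIs; the part of neutrophil RNA in the difference was not tested. The granzymes Gzmc to Gzmg of mouse chromosome 14 gave 78 UMIs in replicate 1 and 628 in replicate 2, of which 1 barcode of replicate 2 held 462 and the next 40 and 23. By gene, the highest barcode held 162 of 213 Gzmf UMIs and 159 of 162 Gzmg UMIs. Gzma in replicate 2 was spread over 19 barcodes (6.86%), with 55 of 130 UMIs in 1 of them. In replicate 1 all 13 Gzma UMIs lay in 3 barcodes, with 9 in 1 of them.

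**Figure D4:**
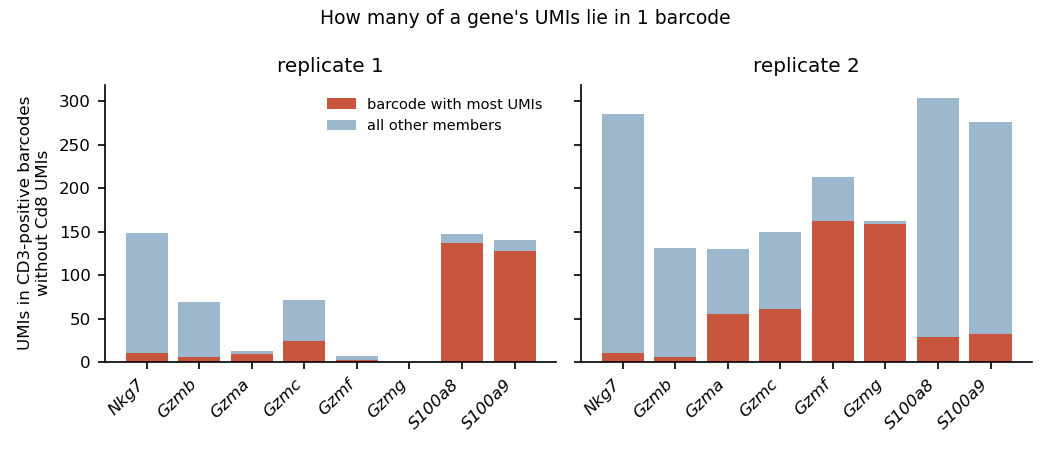
UMIs of 8 genes in CD3-positive barcodes without Cd8 UMIs (y axis), split into the barcode with the most UMIs of that gene and all others, by replicate. Nkg7 and Gzmb are spread over many barcodes, while 1 barcode holds 137 of 147 S100a8 UMIs in replicate 1 and 162 of 213 Gzmf UMIs in replicate 2.

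The count of 0 depended on which classes entered the fit. Without the barcodes chosen by NK genes, a choice made after the data were seen, Gzma, Gzmc, Gzmf, S100a8 and S100a9 rose and Ccl4 fell in edgeR. For Gzmf the libraries differed in sign, with a log2 fold change of -0.18 in replicate 1 and 2.21 in replicate 2. In that fit Gzma changed by 3.46 (SE 0.47, adjusted p = 0.000683), S100a8 by 1.67 (SE 0.29, adjusted p = 0.0082) and Ccl4 by -0.93 on the log2 scale (SE 0.15, adjusted p = 0.00457). When the barcode with the most Gzmc to Gzmg UMIs and the one with the most S100a8 and S100a9 UMIs were also left out of both classes in each library, Gzma (3.36, SE 0.53) and Ccl4 (-0.96, SE 0.15) still passed, each with an adjusted p of 0.00253. Gzmf then stood at 0.62 (SE 0.39) and S100a8 at 1.24 (SE 0.52), and neither passed. Those barcodes were picked by the counts of Gzmc to Gzmg and of S100a8 and S100a9, so the lower values of Gzmf and S100a8 follow in part from the choice. They were not picked by Gzma, which kept 4 and 129 UMIs, against 0 and 9 with Cd8 UMIs. Whether Gzma passes without its own highest barcodes was not tested.

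Against the C1q barcodes, 67 of 5995 tested genes were called in edgeR, all 67 higher and 0 lower, a background of 1.12%. The C1q class was chosen to hold no UMI of the rule's genes, so this comparison describes what else travelled with CD3 UMIs in the same droplets. The same 58 genes that DESeq2 called are among the 67. T-cell receptor signalling genes gave 10 of 17 (Lck, Lat, Cd2, Cd5, Cd6, Cd27, Cd28, Skap1, Txk and Sh2d2a), with a median log2 fold change of 3.40 beside -0.01 over all genes. The Gimap GTPases, which support lymphocyte survival, gave 7 of 7 with a median of 4.08. Il2rb rose by 3.40 (SE 0.37, adjusted p = 0.000971) and Il18r1, a chain of the interleukin-18 receptor, by 3.85 (SE 0.62, adjusted p = 0.00668).

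Cytotoxic genes gave 8 of 13 over the C1q barcodes: Gzma, Gzmb, Gzmc, Gzmf, Prf1, Nkg7, Ifng and Ctsw. Gzmb was in 33 of 168 barcodes (19.6%) and 89 of 277 (32.1%), against 0.794% and 2.69% of C1q barcodes, and rose by 4.02 (SE 0.53, adjusted p = 0.0019). Nkg7 rose by 3.70 (SE 0.46, adjusted p = 0.0013). Prf1, the pore-forming protein perforin, had 7 and 38 UMIs, against 2 and 4 (4.09, SE 0.61). NK genes gave 6 of 10 (Gzma, Prf1, Klrd1, Klrc1, Klre1 and Xcl1), of which 2 are also on the cytotoxic list. Klre1 is 1 of the NK genes that limited the C1q class, so its call may follow in part from that rule. Killer-cell transcripts were thus carried by barcodes in which no Cd8 was read, in both libraries.

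Regulatory T-cell genes gave 4 of 5 over the C1q barcodes. Ctla4, an inhibitory receptor, rose by 3.75 (SE 0.50), Tnfrsf4 by 3.68 (SE 0.45), Tnfrsf18 by 3.29 (SE 0.37) and Ikzf2 by 3.30 (SE 0.42). Activated CD8 T cells also transcribe these genes, and Ctla4 was in 24 (14.3%) and 42 (15.2%) of the barcodes, against 2 (6.06%) and 45 (24.7%) with Cd8 UMIs. Exhaustion genes gave 4 of 15 (Pdcd1, Ctla4, Cd160 and Tnfrsf9), helper genes 1 of 3 (Icos) and naive or memory genes 1 of 7 (Cxcr6, a chemokine receptor of tissue-resident T cells). Tcf7, the factor of stem-like T cells, was in 1 and 4 barcodes. Cell cycle, interferon, acetyl-CoA and histone acetylation, dissociation stress, dendritic, neutrophil, B-cell, innate lymphoid, tumour and fibroblast genes gave 0 called.

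**Figure D5:**
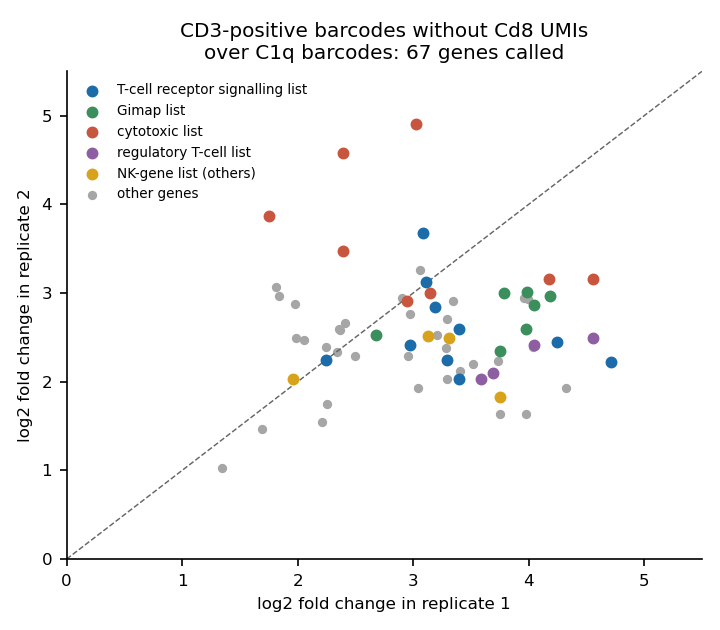
Log2 fold change of CD3-positive barcodes without Cd8 UMIs over C1q barcodes in replicate 1 (x axis) and replicate 2 (y axis) for the 67 genes called, with list members in colour and the dashed line marking equal values. The 4 regulatory T-cell list genes and all 7 Gimap genes lie to the right of the line, and Gzma, Gzmc, Gzmf and Prf1 above it.

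The 10 genes that led the 67 by size were Cd5 (5.29, SE 0.74), Ccl1 (4.996, SE 0.69), Gzmf (4.69, SE 0.40), Klk8 (4.56, SE 0.85), Ifng (4.47, SE 0.67), Gimap5 (4.28, SE 0.52), Gzmc (4.23, SE 0.87), Gimap7 (4.22, SE 0.61), Gimap3 (4.19, SE 0.48) and Skap1 (4.16, SE 0.90). Gimap4 had 53 and 76 UMIs, or 122 and 149 CPM, against 4.25 and 16.2 CPM in C1q barcodes. No macrophage gene passed: 0 of 11 tested, all 11 below 0, with a median of -0.33. The genes with the smallest p on the lower side were Lpl, Cadm1, Gnl3, Tlr2 and Lpcat2, at -1.27 to -0.95, and none passed. Lpl, a lipase of lipid-laden macrophages, had 14 and 17 UMIs, against 168 and 83 in the larger C1q class (-1.27, SE 0.30, adjusted p = 0.105).

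With every CD3-positive barcode of 2 or more C1q UMIs left out, 69 genes were called against the C1q barcodes, 47 higher and 22 lower, and 42 of the 67 were among them. The Cd8-positive class, then too small, left that fit as well; with that class alone left out, 40 genes were called, all 40 higher. The lower genes cannot be told apart from the choice of barcodes with little C1q RNA, which numbered 45 and 83. Among them Cd4 was in 2 of 128, Trdc in 4 and Ncr1 in 4.

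The third class, barcodes with at least 2 UMIs of Ncr1, Klrb1c, Klre1, Klra4, Klra7 and Klra8 and none of the rule's genes, numbered 27 and 136. It was not usable as NK cells. Klra4 made up 72.7% and 96.2% of its NK-gene UMIs, Ptprc was in 29.6% and 2.94% of its barcodes, and Cald1 or Cav1 in 18 of 27 and 117 of 136. Against it 2368 of 5995 genes were called in edgeR (39.5%), 1292 higher and 1076 lower in the CD3-positive barcodes without Cd8 UMIs. Tnfrsf4 and Cxcr6 were among the 10 largest on the higher side and were at 0 UMIs in the NK-gene class. Fermt2, an adhesion gene of non-blood cells, averaged 0.923 ± 1.31 TMM-scaled CPM, against 77.1 ± 52.8 (SD, n = 2 libraries). These values describe the difference from a CD45-poor class, and nothing about NK cells was read from them.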

How the data were processed

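Libraries were made with the 10x Chromium 3′ v3.1 kit, per the labels' protocols. Cell Ranger 6.0.1, Seurat 4.0.1 and mm10 are named in the submitters' processing notes, with no role given. The deposited matrices hold raw UMI counts for 32285 genes in 2749 and 2937 barcodes (5688000 and 5862342 UMIs); no source used here states a removal of free RNA or doublets. Scrublet (scanpy 1.11.5) marked 12 of 5225 kept barcodes (0.230%), too few to have worked, so doublets were kept.

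Counts were summed per library and class, and tested in 1 edgeR 4.0.16 quasi-likelihood fit over the 4 classes (CD3-positive without Cd8, with Cd8, C1q, NK-gene) with the library as block, TMM scaling, filterByExpr and Benjamini-Hochberg adjustment at 0.05. The block pairs classes of 1 library, so no correlation check was needed. The genes that chose a class were left out of its tests, with 1 exception. The 6 NK genes that limited the C1q class stayed in the tests against it. DESeq2 1.42.0, other scalings, filters and classes were alternatives, and the fit was tested on simulated counts. CPM are scaled to the UMIs of the class unless called TMM-scaled; CPM are not adjusted for gene length, so genes are not ranked by level. Intervals for shares are exact binomial (Clopper-Pearson, 95%), and a count of 0 allows 3 counts; both cover counting error only. P-values set a difference against how far class differences vary between the 2 libraries of 1 group. In the main fit that spread is estimated over all 4 classes, the NK-gene class included, with 3 residual degrees of freedom.

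Named genes were the largest up to 10 called per direction with the same sign in both libraries (under 5 called: those of smallest p), the 2 most abundant and all called genes of 22 lists, and Cd4, Foxp3, Trdc and Ncr1. The members, lists and rules were chosen with earlier results of these data known. Ccl4, Cd40lg, Il17a, Il2ra, Izumo1r, Klrb1c and Tcf7, and the barcodes behind single genes, were chosen after their values were seen. No sequence is printed, because no sequence carries a result here.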

Additional observations from a re-analysis of the deposited data

How the results depend on the processing

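The share of kept barcodes (8.40%) moved to 5.21% with 3 or more CD3 UMIs and to 2.41% without barcodes of 2 or more C1q UMIs; the 3 other settings that keep both libraries left it within 1 SD. Leaving out 1 library gave 7.04 to 9.76% for that share, 4.69 to 16.7% for a Cd4, Foxp3, Trdc or Ncr1 UMI (10.7%), and 8.33 to 44.2% for the Chapman estimate of hidden CD8 T cells (mean 26.3%), so the last 2 rest on which library is taken. Against Cd8-positive barcodes, the 0 calls became 7 without the low-count filter (Gzmd and Gzmg, each mostly 1 barcode, among them), 6 with only the 2 classes compared, 6 without the NK-gene class and 2 without it and the highest granzyme and S100a8 barcodes, whether these were left out of the barcodes without Cd8 UMIs alone or of both classes. Against C1q barcodes, 67 became 29 with no replicate block, 323 with only the 2 classes compared, 172 without the NK-gene class, 40 without the Cd8-positive class, and 120 at 800 UMIs per barcode, where only the 2 classes could be fitted, so that 323 is the count of the same form; all 29 of the unblocked calls were among the 67, and 44 of the 67 were called at 800 UMIs. Against NK-gene barcodes, 2368 became 1461 with no replicate block, 1328 with only the 2 classes and 557 without the CD3-positive barcodes of 2 or more C1q UMIs, a fit that also lost the Cd8-positive class; without that class alone it was 2220. The fits without the NK-gene or the Cd8-positive class, or without the highest barcodes, were chosen after seeing the data. Fewer classes change the genes tested and the estimate of spread; the cause was not tested. The comparison with Cd8-positive barcodes could not be fitted at 800 UMIs or without C1q-holding barcodes, where that class has under 20 barcodes in replicate 1, and no test remains with 1 library. Of the named genes' 136, 219 and 247 values under alternatives in the 3 comparisons, 0 reversed. Against Cd8-positive barcodes, 11 values came to pass the threshold and 8 changed in size. Against C1q barcodes, 11 came to pass, 20 no longer passed and 15 changed in size. Against NK-gene barcodes, 5 no longer passed and 38 changed in size. Gzmc, for example, lost its call against C1q barcodes in DESeq2. Depth limits the 4 lineage genes: each rests on 2 to 9 barcodes per library.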

Other observations

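Among CD3-positive barcodes without Cd8 UMIs, 2 of replicate 1 and 5 of replicate 2 held 10 or more UMIs of Gzmc to Gzmg, against 0 and 1 of those with Cd8 UMIs. These 7 held 49 and 546 of the 78 and 628 such UMIs. Of them, 1 and 4 held Gzma, 1 and 2 held Ncr1, 2 and 4 held Trbc1 or Trbc2, and none held Trac or Trdc. Klrd1 was in 2 and 4 of them, and at least 2 C1q UMIs were in 1 and 4. The barcodes were picked by their granzyme counts, so these are values without a test.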
